A study of Homo sapiens with 6 samples.

Results

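The IL6 locus is described here as the H3K27ac peaks that overlap 22550000 to 22950000 of chromosome 7 in hg19, a window of 400 kb around the gene. The members were chosen by position alone, with the gene body taken as 22765500 to 22771600. The window held 29 peaks, 20 of the 56420 in the M2 list and 9 of the 31444 in the THP-1 list. The M2 group is labelled as M2 macrophages and the THP-1 group as human monocytes of the THP-1 line, an established monocytic leukaemia line. The labels name the same serum-containing medium for both, and give neither a treatment nor the cells from which the macrophages were made. Chromatin was fixed with formaldehyde, sheared and precipitated with an antibody to H3K27ac, with 1 library per cell type. The study's title links a YY1 complex in tumour-associated macrophages to IL-6, and the peaks near the gene bear on where its chromatin was acetylated. Libraries for YY1 and input are not used here, and the labelled cell types were not checked against marker genes because no hg19 annotation was used here.

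IL6 encodes interleukin-6, a secreted cytokine that signals through IL6R and the shared receptor subunit IL6ST to STAT3. Myeloid cells transcribe it mainly after an inflammatory signal, when NF-kB, C/EBP and AP-1 factors act at its promoter and at distant enhancers. H3K27ac is acetylated lysine 27 of histone H3, which lies on nucleosomes beside active promoters and at active enhancers. In the RefSeq gene table for GRCh38.p14 the protein-coding neighbours of IL6 are STEAP1B before it and TOMM7 after it, and IL6-AS1 is a non-coding gene beside its start on the other strand. These names give the order of genes only, and no peak was assigned to a neighbour.

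The 250 bases before the RefSeq start of IL6 are shown because neither list held a peak at the gene. They lie at chr7:22726950-22727199 on the plus strand of GRCh38.p14, a build whose positions cannot be set beside the hg19 positions of the peaks. Capitals mark, from left to right, a YY1 core, a CRE, a C/EBP element and the start of an NF-kB element.
IL6 promoter: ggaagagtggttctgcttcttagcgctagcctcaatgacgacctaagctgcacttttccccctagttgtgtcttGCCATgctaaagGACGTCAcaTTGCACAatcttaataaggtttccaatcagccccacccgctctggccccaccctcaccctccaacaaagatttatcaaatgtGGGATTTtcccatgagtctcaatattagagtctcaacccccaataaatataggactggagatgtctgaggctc

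Both strands were searched for exact letters, and positions count back from the RefSeq start. The YY1 core GCCAT, the letters read by the factor named in the study's title, stood at -176 to -172, and 29.4% of 35116 RefSeq promoters of the same length hold it. The CRE letters TGACGTC matched on the minus strand at -164 to -158 and occur in 3.12% of promoters. The C/EBP letters TTGCNNA matched at -155 to -149 and occur in 29.0%. The NF-kB letters GGGANTT matched at -73 to -67 and occur in 14.1%. The matches did not overlap each other. AP-1 (TGANTCA, 6.57% of promoters) and TATA box (TATAAA, 10.7%) letters are not in this window. The letters are a description of the reference, and no binding was measured here.

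No H3K27ac peak lay over IL6 itself in either cell type. The gene body held 0 M2 peaks and 0 THP-1 peaks. The closest peak upstream ended 1801 bp before the gene start in M2 macrophages, and 2400 bp before it in THP-1 cells. Only the M2 peak reached into the stretch within 2 kb of the gene start, by 199 bp. This call depends on the limit set, since within 1 kb there was no peak in either list and within 5 kb there was 1 in each. The gene body of 6100 bp used here is 1301 bp longer than the RefSeq gene of 4799 bp, and at which end the extra length lies was not determined. If it lies at the start, the closest peak ends 3102 bp before the RefSeq start in M2 macrophages and 3701 bp before it in THP-1 cells, and neither list has a peak within 2 kb of it. A gene body without a peak is not a gene body without acetylation, because the lists hold called peaks and no reads. The fewest fragments recovered over any summit of the whole lists were 9 for M2 macrophages and 8 for THP-1 cells. That is 3.91 and 4.53 times the lowest background of the list, and less was not detectable anywhere. Where the background is higher, the limit is higher too. At THP-1 peaks with a background within 10% of 2.69 times the lowest, the fewest fragments were 13. The background over the gene body is not known, so the limit there is not known either.

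The gene stood at the upstream end of a long stretch without peaks. Taking both lists together, no peak lay between 22763700 and 22861500, a length of 97.8 kb, of which 89.9 kb follow the end of the gene. The stretch was 98.1 kb long for M2 peaks alone and 98.4 kb for THP-1 peaks alone. Of the 63158 stretches between neighbouring peaks of the combined lists, 90.3% were shorter, and the median was 9.02 kb. Among stretches between M2 peaks alone 89.3% were shorter, and among those between THP-1 peaks 80.4%. Long stretches of this kind are therefore not rare in either list.

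**Figure D1:**
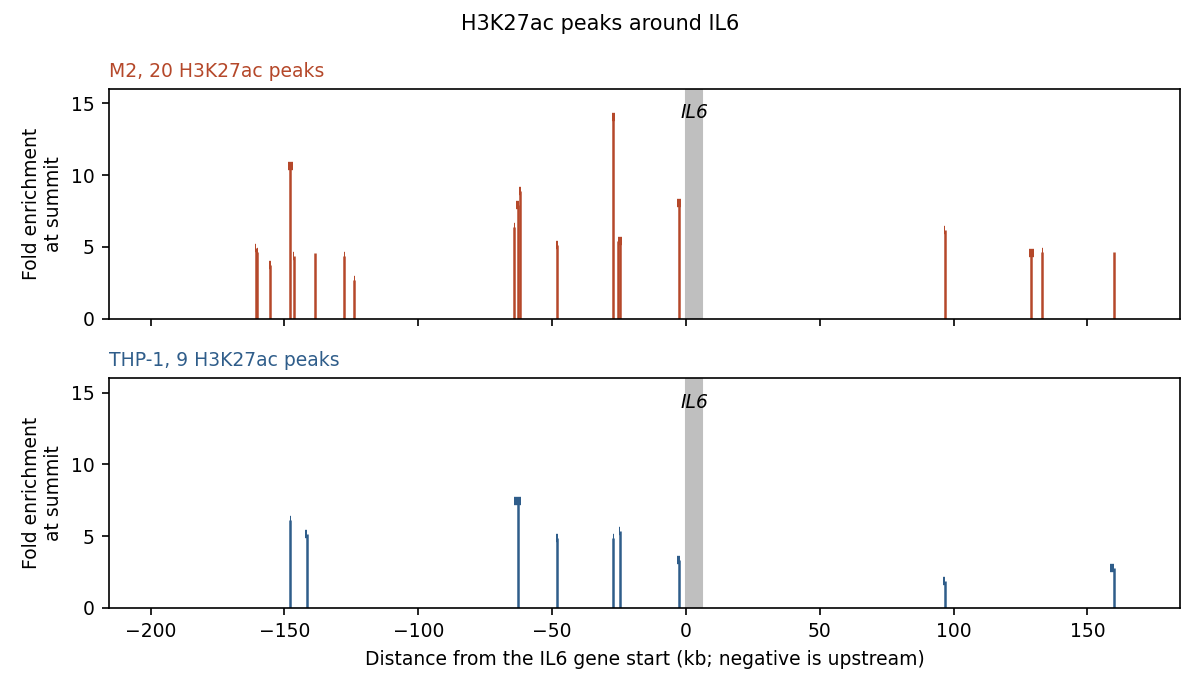
H3K27ac peaks of M2 macrophages (top) and THP-1 cells (bottom) over the 400 kb window, with distance from the IL6 gene start in kb on the horizontal axis and the authors' fold enrichment at the summit on the vertical axis. Each vertical line is 1 peak at its summit, the short bar on top is its width and the grey band is the gene body. The 20 M2 and 9 THP-1 peaks lie on both sides of IL6 and none lies on it.

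Most peaks and most covered length of the window lay upstream of IL6 in both cell types. The 215.5 kb upstream held 16 M2 peaks covering 11.7 kb, against 7 THP-1 peaks covering 6.72 kb. The 178.4 kb downstream held 4 M2 peaks covering 2.99 kb, against 2 THP-1 peaks covering 2.30 kb. Recovered fragments over a summit were more downstream, with a median of 84 against 19 upstream in M2 and 57.5 against 18 in THP-1. The median background was also higher downstream in both lists. Over the whole window M2 peaks covered 14.7 kb (3.68% of its length) and THP-1 peaks 9.02 kb (2.25%), a ratio of 1.63. The ratio was 1.75 upstream and 1.30 downstream. The median width was 489 bp for M2 peaks (range 310 to 1931), against 764 bp for THP-1 peaks (range 450 to 2887). The THP-1 list has 31444 peaks, so cutting both lists to that length by -log10 q removes M2 peaks only. After this cut the order turned, with a median of 1238 bp for the M2 peaks left in the window and 764 bp for the THP-1 peaks. A cut on M2 alone does not settle the order. Over the whole lists it is also the other way, since the median M2 peak was 743 bp wide and the median THP-1 peak 661 bp. With 1 library per cell type none of these differences has a replicate check, and no p-value is given.

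M2 peaks outnumbered THP-1 peaks in the full lists and with the same limit for both, but not after a cut on M2 alone. When the M2 list was cut by -log10 q to 31444 peaks, the full length of the THP-1 list, no THP-1 peak was removed. That left 8 M2 and 9 THP-1 peaks in the window, with a ratio of covered length of 1.03. Such a cut can only lower the M2 numbers, so nothing is read from this order. With the same limit for both lists, a -log10 q of at least 10, 8 M2 and 2 THP-1 peaks were left, and the ratio was 2.79. The THP-1 peaks of the window had the higher local background, with a median of 1.19 times the lowest background of the list at M2 peaks and 2.69 times at THP-1 peaks. Where the background is higher, equal numbers of fragments give a lower -log10 q, and its part in these counts was not tested.

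Set beside the rest of the genome, the locus had more covered sequence than most windows in both cell types, and an M2 over THP-1 ratio below the median. Chromosomes 1 to 22 and X were divided into windows of 400 kb, of which 5858 held a peak. The M2 covered length of the IL6 window was above that of 73.7% of them, and the THP-1 covered length above that of 83.0%. The median window held 7.04 kb of M2 and 2.63 kb of THP-1 peaks. In 5112 windows with a THP-1 peak, the median ratio of M2 over THP-1 covered length was 2.17, and 65.3% of windows had a ratio at or above the 1.63 of the IL6 window. More M2 than THP-1 sequence was covered in 84.4% of these windows. All M2 peaks together covered 2.19 times as much sequence as all THP-1 peaks.

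**Figure D2:**
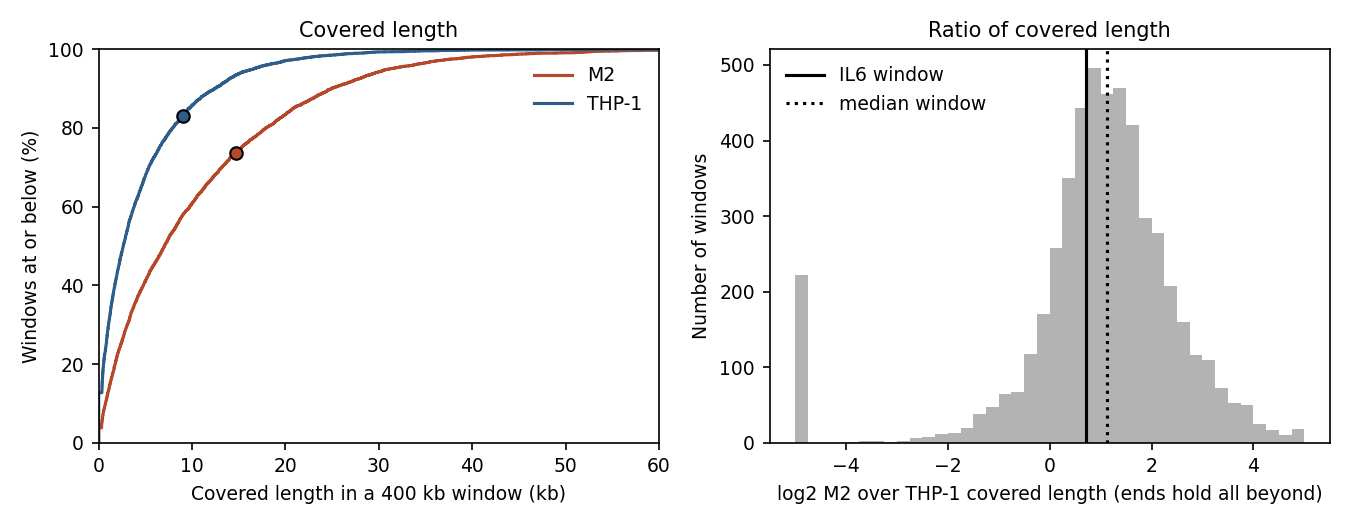
Left, the share of 400 kb windows (%) at or below a given covered length (kb) in M2 macrophages and THP-1 cells, with the IL6 window as a dot on each curve at 73.7% for M2 and 83.0% for THP-1. Right, the number of windows by log2 ratio of M2 over THP-1 covered length, where the bar at the left end holds windows without M2 peaks. The solid line, the IL6 window at a ratio of 1.63, lies left of the dotted median of 2.17.

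Peaks of both lists that lay within 10 kb of each other were joined into 9 sites, a grouping chosen after the data were seen. Each site is named by the distance of its middle from the gene start, with a minus sign for upstream. Both cell types had a peak at 7 of the sites, and M2 macrophages alone at the other two. M2 covered more sequence at 6 sites and THP-1 cells at 3. In lists of equal length, where only M2 peaks were removed, the numbers were 4 and 4, with no peak at the remaining one. That cut can only lower the M2 covered length, so nothing is read from the evening of the numbers.

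The site at -3 kb, the closest to IL6, held 1 peak in each cell type. The M2 peak spanned 22762184 to 22763699, was 1516 bp wide and had a fold enrichment of 8.02 over the local background, the authors' value. The THP-1 peak spanned 22762304 to 22763100, was 797 bp wide and had a fold enrichment of 3.31. Their summits lay 47 bp apart, both at -2.6 kb. The M2 summit held 56 recovered fragments and the THP-1 summit 18. Summit coverage is given here as these fragments, scaled as in the peak calls, over the lowest background of the list. It was 24.3 in M2 macrophages and 10.2 in THP-1 cells, a ratio of 2.39 with an exact binomial 95% interval of 1.38 to 4.31 from the fragment counts. Such intervals cover counting error only. Local background was alike at this pair, 2.58 times the lowest in M2 and 2.69 times in THP-1.

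The site at -26 kb held the M2 peak of highest fold enrichment in the window. That peak, from 22737691 to 22739044, was 14.1-fold over background and 1354 bp wide, and ranked above 95.9% of M2 peaks by fold. The THP-1 peak inside it, from 22738214 to 22738737, was 4.88-fold and 524 bp wide. Summit coverage at -27.1 kb was 21.3 in M2 macrophages and 7.37 in THP-1 cells, a ratio of 2.89 (interval 1.54 to 5.81), with backgrounds of 1.03 and 1.06 times the lowest. A second pair at the same site, with summits at -24.7 kb only 5 bp apart, stood the other way round. There coverage was 8.26 in M2 and 15.9 in THP-1 cells, a ratio of 0.520 (interval 0.275 to 0.966). Its fold enrichment was nearly equal, 5.40 in M2 and 5.33 in THP-1, and its background was 1.11 times the lowest in M2 and 2.52 times in THP-1. The remaining M2 peak of the site, 361 bp wide and 5.38-fold, lay 107 bp from the nearest THP-1 peak and overlapped none. At neighbouring summits of one site, coverage was thus higher in M2 at the first and higher in THP-1 cells at the next.

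The sites at -48 and -63 kb were higher in THP-1 cells by coverage, but not by fold enrichment at the paired summits. At -48 kb the M2 peak (894 bp, 5.10-fold) and the THP-1 peak (840 bp, 4.87-fold) were alike in width and fold. Their coverage was 7.39 in M2 and 15.3 in THP-1 cells, a ratio of 0.483 (interval 0.247 to 0.919). Their backgrounds were 1.03 times the lowest in M2 and 2.69 times in THP-1. At -63 kb a single THP-1 peak of 2887 bp, from 22701138 to 22704024, spanned the place of 3 M2 peaks of 464, 1122 and 719 bp. It was the widest THP-1 peak of the window, wider than 97.8% of the THP-1 list, and its 7.45-fold enrichment was the highest of the THP-1 peaks here. The M2 peaks were 6.36-, 7.94- and 8.88-fold and together covered 2305 bp. Coverage at the paired summits was 19.99 in M2 and 35.1 in THP-1 cells, a ratio of 0.569 (interval 0.38 to 0.847). Backgrounds at this pair were 2.06 times the lowest in M2 and 4.23 times in THP-1.

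The farthest upstream stretch held 8 M2 and 2 THP-1 peaks, but most of its M2 peaks were weak. The site at -150 kb held 6 M2 peaks covering 3754 bp, against 2 THP-1 peaks covering 1217 bp. Its main M2 peak, from 22616715 to 22618645, was 10.6-fold and, at 1931 bp, the widest M2 peak of the window. The THP-1 peak inside it was 453 bp wide and 6.15-fold. Coverage was 26.9 in M2 and 9.06 in THP-1 cells, a ratio of 2.97 (interval 1.69 to 5.52), although the M2 background was the higher here, 2.06 times the lowest against 1.00 in THP-1. The second THP-1 peak, from 22623132 to 22623895 and 5.12-fold, was the only THP-1 peak of the window that overlapped no M2 peak, and the nearest M2 peak was 2870 bp away. The site at -126 kb held 2 M2 peaks (4.35- and 2.69-fold) and no THP-1 peak. In lists of equal length 1 M2 peak and 2 THP-1 peaks were left at -150 kb, with a ratio of covered length of 1.59 in place of 3.08, and no peak at -126 kb.

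Downstream of the gene the first peaks lay at +96 kb, where coverage did not differ beyond counting error. The M2 peak was 667 bp wide and 6.19-fold, and the THP-1 peak 742 bp and 1.90-fold. Coverage was 37.8 in M2 and 38.5 in THP-1 cells, a ratio of 0.981 (interval 0.706 to 1.37). The gap in fold enrichment came with a background of 5.68 times the lowest in M2 and 19.98 times in THP-1. At +131 kb M2 macrophages had 2 peaks (4.57-fold and 1644 bp, 4.67-fold and 369 bp) and THP-1 cells none within 25256 bp. These M2 summits held 129 and 81 fragments, with backgrounds of 11.9 and 7.13 times the lowest. At +159 kb the THP-1 peak was the wider, 1558 bp and 2.78-fold, against 313 bp and 4.64-fold in M2. Coverage there was 6.52 in M2 and 26.6 in THP-1 cells, a ratio of 0.245 (interval 0.127 to 0.446), with backgrounds of 1.00 and 9.22 times the lowest.

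**Figure D3:**
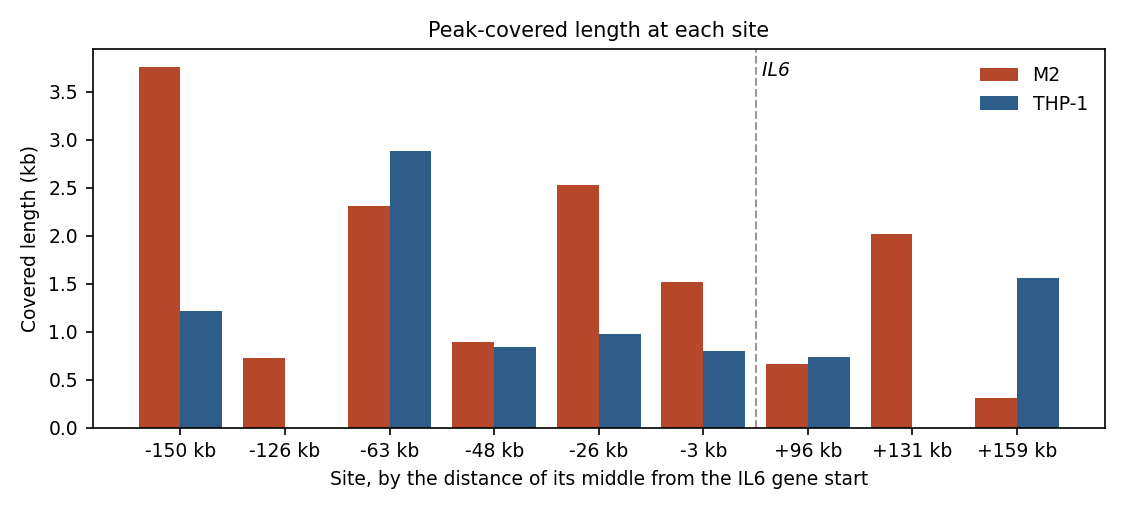
Covered length (kb) of M2 and THP-1 peaks at the 9 sites, named on the horizontal axis by the distance of their middle from the IL6 gene start, with the dashed line at the gene. With the full lists, M2 bars are the taller at 6 sites, up to 3754 bp at -150 kb, and THP-1 bars at -63, +96 and +159 kb.

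Across the 8 pairs of overlapping peaks the direction depended on the measure. Each of the 8 overlapped THP-1 peaks was paired with the overlapping M2 peak of nearest summit, and summits lay 3 to 137 bp apart. Fold enrichment was higher in M2 in 8 of 8 pairs, with a median ratio of 1.70 (range 1.01 to 3.25). Over all 23600 pairs of the lists it was higher in M2 in 86.4%, with a median of 2.04. Summit coverage was higher in M2 in 3 of 8 pairs, with a median ratio of 0.775 (range 0.245 to 2.97), and over all pairs in 51.3%, with a median of 1.02. Background was higher in M2 in 1 of 8 pairs, with a median ratio of 0.464, against 17.3% of all pairs and a median of 0.481. In width the M2 peak exceeded its THP-1 partner in 5 of 8 pairs, against 75.3% of all pairs.

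The counting interval of the coverage ratio lay above 1 in 3 pairs, at -147.9, -27.1 and -2.6 kb. It lay below 1 in 4 pairs, at -62.7, -48.1, -24.7 and +159.9 kb, and held 1 at +96.7 kb. Over all pairs the interval lay above 1 in 28.4% and below 1 in 23.1%. The 3 pairs with the higher M2 coverage were also the 3 with the largest excess of M2 width, 4.26, 2.58 and 1.90 times the THP-1 width. The next was close, 1.81 times at -24.7 kb. Width and coverage of a peak come from the same reads, so their agreement is not separate evidence. Its share over all pairs is not given here. In the 4 pairs with the lower M2 coverage, M2 background was 0.108 to 0.489 times that of THP-1. In the 3 pairs with the higher one it was 2.06, 0.974 and 0.960 times. Whether the background entered the difference in coverage was not tested.

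**Figure D4:**
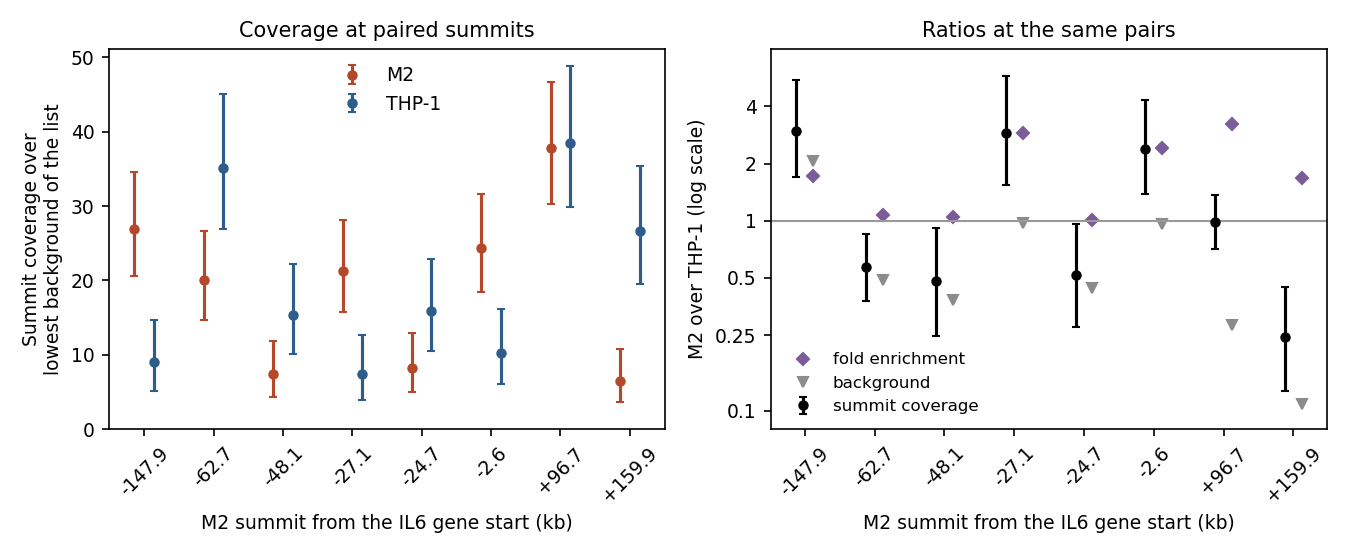
Left, summit coverage over the lowest background of the list at the 8 pairs of overlapping peaks in M2 macrophages and THP-1 cells, with exact Poisson 95% intervals that cover counting error only. Right, on a log scale, the M2 over THP-1 ratio of coverage with exact binomial 95% intervals, of fold enrichment and of background. Fold ratios all lie above 1, while coverage ratios lie between 0.245 and 2.97.

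Nearly all THP-1 peaks of the window, and fewer of the M2 peaks, had a counterpart. A THP-1 peak lay over 10 of the 20 M2 peaks, 50% (exact interval 27.2 to 72.8), and the other 10 had none, where 63.0% of the whole M2 list had none. An M2 peak lay over 8 of the 9 THP-1 peaks, 88.9% (51.8 to 99.7), and 1 had none, where 24.7% of the whole THP-1 list had none. These intervals treat the peaks of 1 library as independent, which they are not, since 3 of the shared M2 peaks lie under a single THP-1 peak at -63 kb, so they can be too narrow and nothing is read from them. In lists of equal length, where only M2 peaks were removed, 75% of the M2 and 55.6% of the THP-1 peaks of the window were shared. Sequence under peaks of both cell types came to 5909 bp, 40.2% of the M2 and 65.5% of the THP-1 covered length of the window.

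The 10 unmatched M2 peaks were mostly narrow and weak. Their median width was 353.5 bp and their median fold enrichment 4.55 (range 2.69 to 5.38), against 854.5 bp and 7.15 (range 4.64 to 14.1) for the 10 shared ones. They made up 33.4% of the M2 covered length. The fragments over their summits ranged from 14 to 129 with a median of 18, against a median of 45.5 over shared summits. The 129 belong to the widest of them, 1644 bp at +131 kb. The same comparison over the whole M2 list is not given here, so whether it is particular to the window was not tested. At equal coverage a THP-1 library would have held 10.7 to 98.9 fragments at these sites, with a median of 13.8. The fewest fragments over any THP-1 summit were 8 where the background was at most 1.2 times the lowest, and 13 where it was within 10% of the median at the THP-1 peaks of the window. All 10 sites reached the first number and 6 reached the second. At the other 4 an equal THP-1 signal on such a background was not detectable, and the THP-1 background at sites without a THP-1 peak is not known. The peaks at +131 kb, counted among the 6, had M2 backgrounds of 11.9 and 7.13 times the lowest. The THP-1 peaks at +96 and +159 kb had backgrounds of 19.98 and 9.22 times the lowest. The second number may thus be too low at +131 kb.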

How the data were processed

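H3K27ac ChIP-seq peak lists of M2 macrophages and THP-1 cells, 1 library each of 6 in the series, were used. Per the submitters' processing notes, Bowtie2 and MACS2 2.1.0 were used with hg19. Peak calling settings, and any use of input as control, are not given in the sources used here. Neither file has a header, and columns were taken in narrowPeak order. Fold enrichment (a ratio to local background), -log10 p and -log10 q per peak are the authors' deposited values. The score column deposited by the authors was not used. The Y chromosome was left out.

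Fragments over a summit and local background were solved from fold enrichment and p, with fold as pileup plus 1 over background plus 1 and p as a Poisson tail. With the M2 pileup scaled by 0.842 and the THP-1 pileup unscaled, pileups came out whole within 0.02 fragments in 99.996% (M2) and 100% (THP-1) of peaks, against 9.47% and 10.6% at a typical other scale. On simulated peaks 100% of single solutions were right. These are inferred, not counts the authors gave. A median of 39 fragments lay over M2 and 40 over THP-1 summits, and total depth is unknown. The lowest background was 1.94 in M2 and 1.77 in THP-1.

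Peaks sharing at least 1 bp were called shared. Python 3.11.15, numpy 2.4.6, pandas 2.3.3 and scipy 1.17.1 were used. No test between cell types was made. Sequences are from RefSeq (GRCh38.p14). Peaks over the gene body or promoter stretch, and per zone and list the 5 of highest fold and the widest, were to be named, and others follow with their site. The members and measures were chosen with earlier results of these data known. Settings tried were a minimum -log10 q of 10, lists of equal length, merging, a narrower window, other overlap, promoter and tiling limits, and ranking by -log10 q. For lists of equal length the M2 list was cut by -log10 q to the length of the THP-1 list, which lost no peak.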

Additional observations from a re-analysis of the deposited data

How the results depend on the processing

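With peaks kept from a -log10 q of 10 upwards, the window held 8 M2 and 2 THP-1 peaks covering 9322 and 3337 bp (ratio 2.79). Of these 25% and 50% were shared, 5 M2 and 2 THP-1 peaks lay upstream and 0 THP-1 peaks downstream. The window then stood at the percentiles 62.6 for M2, 70.1 for THP-1 and 49.6 for the ratio. In lists of equal length, where only M2 peaks were removed, 8 M2 peaks covered 9322 bp (ratio 1.03) and 75% were shared. All 9 THP-1 peaks stayed, so the M2 excess in number ended there under a cut on M2 alone. The median width of the M2 peaks left was 1238 bp, a measure chosen after seeing the data. Peaks merged within 500 bp covered 15800 bp in M2 (ratio 1.75). The central 200 kb held 8 M2 and 5 THP-1 peaks covering 7245 and 5498 bp (ratio 1.32), 87.5% and 100% of them shared. A promoter limit of 1 kb left 0 M2 peaks, and 5 kb gave 1 THP-1 peak. A gene start placed the RefSeq length before the gene end, also added later, left 0 M2 peaks. Against windows of chromosome 7 only, the percentiles were 76.8 for M2, 86.4 for THP-1 and 33.0 for the ratio. Fold enrichment in place of summit coverage gave a median pair ratio of 1.70, on the other side of 1. By -log10 q the strongest peaks stood at the percentiles 79.2 in M2 and 92.9 in THP-1. A stricter overlap left the shared parts at 50% of the M2 and 88.9% of the THP-1 peaks. With shifted tiles the percentiles were 74.2 for M2, 83.8 for THP-1 and 35.2 for the ratio. No paired analysis was possible because each group has 1 library.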
